A study of Mus musculus with 16 samples.

Results

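The genes described are 8 that build or guard the muscle fibre membrane, out of the 11710 genes in the count table. They are Dmd (dystrophin), Utrn (utrophin), Dag1 (dystroglycan), Sgca, Sgcb and Sgcd (α-, β- and δ-sarcoglycan), Dtna (α-dystrobrevin) and Dysf (dysferlin). They were chosen by gene name, with earlier results of these data known. All 8 were in the table and passed the filter on low counts. RNA sequencing covered 16 samples of mouse rotator cuff muscle, in 4 groups of 4. One group was C57BL/6J (called BL6), the common reference strain, unoperated, and another was BL6 after a tenectomy, the removal of a rotator cuff tendon, with denervation of the muscle. The remaining groups were MRL/MpJ (called MRL), an inbred strain studied for its wound healing, unoperated and after the same surgery. Neither strain is labelled as carrying a transgene or an engineered allele. Age, sex and the time after surgery were not used here, and tendon removal and denervation, always given together, cannot be told apart. The labels do not say whether replicates were separate animals, so p-values measure the spread between these samples.

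Dystrophin links the actin cytoskeleton of the muscle fibre to dystroglycan, a receptor that spans the membrane and binds laminin in the matrix outside. The sarcoglycans stabilise that link, α-dystrobrevin ties signalling proteins to it, and utrophin is a relative of dystrophin that is concentrated at the neuromuscular junction of mature fibres. Dysferlin belongs to a separate system, the vesicle fusion that closes tears in the membrane, and loss of any of several of these proteins causes a muscular dystrophy.

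Coordinates are those of GENCODE M21 on GRCm38, and every value is a gene-level count, which pools the isoforms of a gene. Dmd (ENSMUSG00000045103) spans chromosome X, 82948870 to 85206141, on the plus strand. Utrn (ENSMUSG00000019820) spans chromosome 10, 12382188 to 12869365, on the minus strand. Dag1 (ENSMUSG00000039952) spans chromosome 9, 108204634 to 108263958, on the minus strand. Among the sarcoglycans, Sgca (ENSMUSG00000001508) spans chromosome 11, 94962791 to 94976327, Sgcb (ENSMUSG00000029156) chromosome 5, 73632749 to 73647790, and Sgcd (ENSMUSG00000020354) chromosome 11, 46896253 to 47988969, all on the minus strand. Dysf (ENSMUSG00000033788) spans chromosome 6, 84008590 to 84211060, on the plus strand, and Dtna (ENSMUSG00000024302) is placed with its values. All 8 are protein-coding, and their longest annotated transcripts run from 1724 bases for Sgca to 14910 for Dmd.

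Promoter windows of 300 bases, 250 before and 50 after a start, were taken from RefSeq on GRCm38.p6, where 7 of the 8 genes had 10 windows. The Dmd windows are shown because a gene-level count cannot tell transcripts of an upstream start from those of an internal start, here 2099425 bases apart. The Sgcb and Sgca windows are shown because, of these subunits of one subcomplex, Sgcb was called after surgery and Sgca was not. No test of one against the other was made. Capitals mark matches, on either strand, to the E-box CANNTG, the GC box GGGCGG, the CArG box and the MEF2 site, and GC boxes overlap in the internal Dmd window.
Dmd, upstream start, chrX:82948620-82948919, plus strand: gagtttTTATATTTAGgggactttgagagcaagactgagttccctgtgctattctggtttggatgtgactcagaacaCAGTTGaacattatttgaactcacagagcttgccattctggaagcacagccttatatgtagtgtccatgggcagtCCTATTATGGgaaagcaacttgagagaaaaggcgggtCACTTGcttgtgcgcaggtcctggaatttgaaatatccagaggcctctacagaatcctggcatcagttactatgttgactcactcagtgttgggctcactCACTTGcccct
Dmd, internal start, chrX:85048045-85048344, plus strand: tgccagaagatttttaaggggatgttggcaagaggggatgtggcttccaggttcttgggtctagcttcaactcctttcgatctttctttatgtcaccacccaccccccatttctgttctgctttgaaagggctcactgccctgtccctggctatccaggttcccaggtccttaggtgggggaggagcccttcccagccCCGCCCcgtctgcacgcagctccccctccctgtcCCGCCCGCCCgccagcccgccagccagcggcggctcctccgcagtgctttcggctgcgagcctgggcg
Sgcb, chr5:73647688-73647987, minus strand: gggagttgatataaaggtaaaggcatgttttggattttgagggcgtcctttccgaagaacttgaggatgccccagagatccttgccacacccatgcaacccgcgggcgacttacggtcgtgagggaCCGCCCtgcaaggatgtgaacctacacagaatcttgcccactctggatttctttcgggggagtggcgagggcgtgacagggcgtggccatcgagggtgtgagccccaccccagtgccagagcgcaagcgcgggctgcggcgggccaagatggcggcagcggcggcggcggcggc
Sgca, chr11:94976278-94976577, minus strand: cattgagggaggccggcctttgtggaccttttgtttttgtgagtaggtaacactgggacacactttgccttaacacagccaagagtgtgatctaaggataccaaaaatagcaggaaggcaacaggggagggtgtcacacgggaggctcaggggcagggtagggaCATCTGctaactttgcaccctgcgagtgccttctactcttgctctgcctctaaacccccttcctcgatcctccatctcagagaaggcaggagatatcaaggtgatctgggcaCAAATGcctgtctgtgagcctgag
The upstream Dmd window held 3 E-boxes, 1 CArG box and 1 MEF2 site, motifs known from muscle promoters, and no GC box. Of 32851 windows of this length, 72.3% held an E-box, 1.63% a CArG box and 3.19% a MEF2 site. The internal Dmd window held 3 GC boxes and none of the other motifs, and 35.7% of all windows held a GC box. Its GC content was 62.7% with 14 CG pairs, against 45.7% and 2 in the upstream window and medians of 52.7% and 7 over all windows. Sgcb's window held 1 GC box and 24 CG pairs, and Sgca's held 2 E-boxes and 4 CG pairs. Of the windows not shown, those of Dysf, not called for surgery, held 1 and 3 GC boxes and 0 and 1 E-boxes. Those of Dag1, called lower, held 3 and 4 GC boxes and 1 E-box each. Sgcd's, called lower in BL6, held 2 E-boxes and 1 GC box, and Utrn's, called higher in MRL, held 7 E-boxes and 0 GC boxes. Any relation of these letters to the changes after surgery was not tested. These matches describe letters and not binding.

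Total counts ran from 24323862 to 43552964 per sample, and the lowest count of any of the 8 genes in any sample was 224, for Sgcd. Levels are in CPM (counts scaled to a library total of 1000000, with totals adjusted by TMM factors), as mean ± SD over n = 4. Muscle fibre markers were abundant in every sample, summing to between 46570 and 159969 CPM over 8 genes. Several libraries stood apart from their groups. Replicate 4 of operated MRL held 11.8% mitochondrial counts against 20.1% to 24.9% in the other operated MRL samples, and its 7 endothelial markers summed to 402 CPM against 831 to 1021. Replicate 1 of unoperated MRL summed to 297 CPM over 7 macrophage markers against 68.2 to 89.4, and replicate 4 of operated BL6 to 7476 CPM over 6 fibroblast markers against 1058 to 1958. Values without these libraries are given beside several results they move.

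In operated BL6 muscle 5 of the 8 genes were lower than in unoperated muscle and none was higher. Dystrophin fell most, 4.21-fold, and its receptor dystroglycan, α-dystrobrevin and the β- and δ-sarcoglycans fell between 1.89-fold and 2.28-fold. Utrophin, α-sarcoglycan and dysferlin did not pass the test. The test was the quasi-likelihood one of edgeR, adjusted by Benjamini-Hochberg over all genes tested, with 0.05 as the threshold of a call. At that threshold 67.9% of all genes were called in BL6, 32.8% lower and 35.1% higher, so that a call alone does not set these genes apart. The median log2 fold change was -0.93 over the 8 genes and 0.04 over all genes tested.

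**Figure D1:**
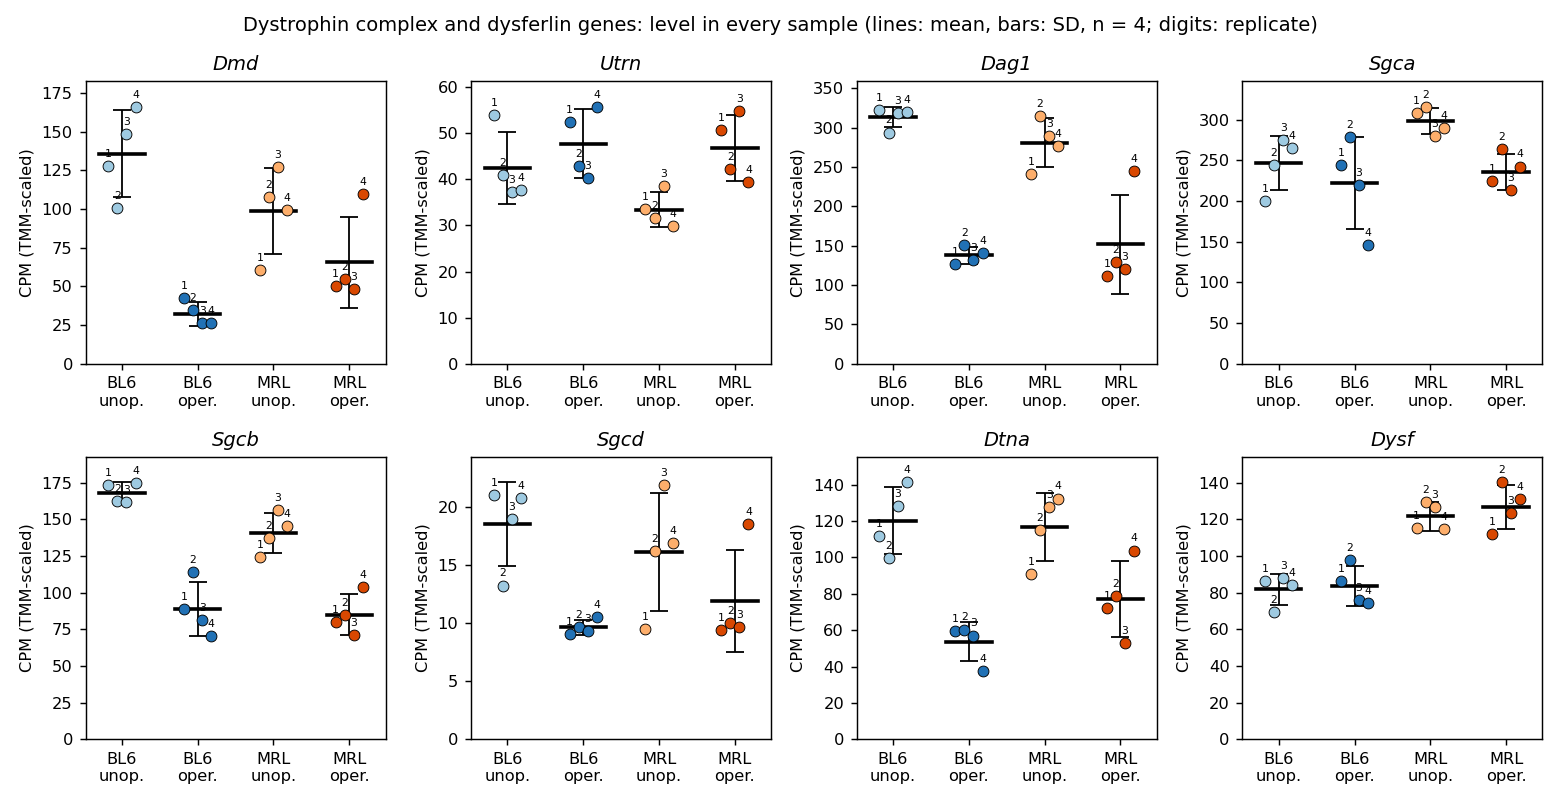
CPM of the 8 genes in each of the 16 samples, with group means (lines), SDs (bars, n = 4) and replicate numbers beside the points. Every operated BL6 sample lies below every unoperated BL6 sample for Dmd, Dag1, Sgcb, Sgcd and Dtna, and replicate 4 of operated MRL lies apart for Dmd, Dag1 and Sgcd.

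Dmd stood at 128, 101, 149 and 166 CPM in replicates 1 to 4 of unoperated BL6. In operated BL6 it stood at 42.3, 34.5, 26.2 and 26.1 CPM. The highest operated sample was below the lowest unoperated sample, and the means were 136 ± 28.1 and 32.3 ± 7.75 CPM. The log2 fold change was -2.07 (SE 0.29) (adjusted p = 3.90e-05, edgeR), and 121 of 11709 genes had a lower value. With each sample left out in turn it ranged from -2.23 to -1.96. Of 297 genes whose longest transcript exceeds 10000 bases, as that of Dmd does, 55.9% were called lower, with a median log2 fold change of -0.43. The 2411 genes of up to 2000 bases had a median of 0.44, and the part of length or RNA quality in the Dmd value was not tested.

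Dag1, which encodes the laminin receptor of the complex, stood at 322, 294, 319 and 319 CPM in unoperated BL6 and at 127, 151, 132 and 141 CPM after surgery. The groups lay far apart, with little spread within either. The log2 fold change was -1.19 (SE 0.20; adjusted p = 0.000141, edgeR). Dtna (chromosome 18, 23415135 to 23659715, plus strand), whose product carries syntrophins, stood at 112, 99.7, 128 and 141 CPM before and at 59.7, 60.4, 57.1 and 37.6 CPM after surgery, a log2 fold change of -1.16 (SE 0.20; adjusted p = 0.000175, edgeR). Replicate 4, the fibroblast-rich library, was the lowest of the operated samples for Dtna.

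Of the 3 sarcoglycans, 2 were called lower in BL6. Sgcb stood at 174, 162, 162 and 175 CPM in unoperated BL6 and at 89.1, 114, 81.6 and 70.5 CPM in operated BL6, a log2 fold change of -0.92 (SE 0.14; adjusted p = 8.90e-05, edgeR). Sgcd, the least abundant in CPM, stood at 21.1, 13.3, 19.0 and 20.8 CPM and at 9.04, 9.68, 9.31 and 10.5 CPM after surgery. Its groups did not overlap, its operated samples were close together, and its log2 fold change was -0.94 (SE 0.25; adjusted p = 0.00364, edgeR). Sgca stood at 200, 244, 275 and 266 CPM and, after surgery, at 244, 279, 220 and 146 CPM. Those groups overlapped, with a log2 fold change of -0.15, a 95% confidence interval from -0.50 to 0.20 and an adjusted p of 0.428 in edgeR. No test of one sarcoglycan against another was made.

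Utrn stood at 53.9, 41.0, 37.2 and 37.7 CPM in unoperated BL6 and at 52.3, 42.8, 40.2 and 55.8 CPM in operated BL6. The groups overlapped, and the log2 fold change of 0.17 (95% interval -0.14 to 0.48) had an adjusted p of 0.315 in edgeR. Dysf stood at 86.3, 69.6, 88.1 and 84.2 CPM and at 86.3, 97.7, 76.1 and 74.5 CPM, with a log2 fold change of 0.03 (95% interval -0.21 to 0.27; adjusted p = 0.837, edgeR). The 5 genes called in BL6 were exactly those whose 4 operated samples all lay below the 4 unoperated ones, a separation in either direction that 56.7% of all genes showed. All BL6 fits that left out 1 sample also called 5 genes.

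The cell make-up of the samples moved with surgery. In BL6, 4 of 8 muscle fibre markers were called lower with a median log2 fold change of -0.55, and the summed fibre markers went from 118425 to 159969 CPM down to 46570 to 140526 CPM. Called higher were 6 of 7 endothelial markers (summed range 352 to 465 CPM before and 803 to 1025 CPM after), 6 of 7 of smooth muscle and pericytes (479 to 555 and 834 to 1404), and 7 of 7 of Schwann cells (83.6 to 110 and 225 to 556). So were 5 of 5 of adipocytes (212 to 282 and 1218 to 1676), 5 of 7 of macrophages (33.7 to 134 and 79.7 to 514) and 3 of 6 of fibroblasts (653 to 1567 and 1058 to 7476). No marker was at 0 in any library. Fewer fibres and less mRNA per fibre cannot be told apart in bulk muscle, and the part of these shifts in the 8 genes' values was not tested.

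In operated MRL muscle, dystroglycan, β-sarcoglycan and α-dystrobrevin fell and utrophin rose, so 4 of the 8 genes were called where 45.0% of all genes were (22.7% lower and 22.3% higher). Dystrophin and δ-sarcoglycan missed the threshold with all samples in, and both were called lower without the libraries that stood apart. The median log2 fold change was -0.51 over the 8 genes and 0.01 over all genes tested. Groups did not overlap for Sgcb and Sgca, which were lower, and Utrn, which was higher, while 33.7% of all genes showed such a separation in either direction.

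Dmd stood at 60.8, 108, 127 and 99.7 CPM in unoperated MRL and at 50.0, 54.7, 48.0 and 110 CPM in operated MRL. Replicate 1 was low among the unoperated samples and replicate 4 high among the operated ones, at the level of unoperated muscle. The log2 fold change was -0.59 (SE 0.28, 95% interval -1.18 to -0.00215) with an adjusted p of 0.0912 in edgeR. Without replicate 1 of unoperated MRL it was -0.76 (adjusted p = 0.0340), and without replicate 4 of operated MRL it was -0.96 (adjusted p = 0.00390). Without both libraries, a choice made after seeing the data, it was -1.13 (adjusted p = 0.000485), and over all alternatives the adjusted p ran from 0.000485 to 0.247. Of genes longer than 10000 bases, 29.0% were called lower in MRL, with a median of -0.18.

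Dag1 stood at 241, 315, 290 and 277 CPM in unoperated MRL and at 112, 129, 121 and 245 CPM after surgery. Only replicate 4 of the operated samples reached the unoperated range, and the log2 fold change was -0.89 (SE 0.20; adjusted p = 0.00368, edgeR), or -1.28 without both libraries. Sgcb stood at 124, 137, 157 and 145 CPM and at 79.8, 84.9, 71.0 and 104 CPM, a log2 fold change of -0.73 (SE 0.14; adjusted p = 0.00213, edgeR). Dtna stood at 90.8, 115, 128 and 132 CPM and at 72.5, 78.9, 53.0 and 104 CPM. Its groups overlapped, and its log2 fold change of -0.60 (SE 0.20; adjusted p = 0.0247, edgeR) was not called without replicate 3 or 4 of unoperated MRL or replicate 1 or 3 of operated MRL, where the adjusted p reached 0.0842. Without both libraries that stood apart it was -0.87 (adjusted p = 0.00174, edgeR), and that of Sgcb was -0.90.

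Sgcd stood at 9.54, 16.2, 21.9 and 17.0 CPM in unoperated MRL and at 9.46, 10.1, 9.69 and 18.5 CPM in operated MRL. Replicate 1 of unoperated MRL lay among the operated values, and replicate 4 of operated MRL among the unoperated ones. For Dmd the former, at 60.8 CPM, stayed above replicates 1 to 3 of operated MRL. The Sgcd log2 fold change of -0.43 had an adjusted p of 0.155 in edgeR. Without both it was -0.91 (adjusted p = 0.000542), close in size to the BL6 value. Sgca stood at 308, 316, 280 and 290 CPM and at 224, 264, 213 and 243 CPM. Every operated sample was lower, yet the log2 fold change of -0.34 (95% interval -0.69 to 0.01) had an adjusted p of 0.100 in edgeR, while the authors' deposited table gives it -0.43 with a false discovery rate of 0.0333.

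Utrn stood at 33.5, 31.7, 38.6 and 29.9 CPM in unoperated MRL and at 50.6, 42.3, 54.9 and 39.4 CPM in operated MRL. All operated samples were higher, the means were 33.4 ± 3.76 and 46.8 ± 7.21 CPM, and the log2 fold change was 0.49 (SE 0.15; adjusted p = 0.0163, edgeR). The call was lost with library sizes from total counts alone, without replicate 4 of unoperated MRL and without replicate 3 of operated MRL, where the adjusted p reached 0.0617. Utrophin is also made by endothelium and other cells of muscle, and 7 of 7 endothelial markers were called higher in MRL, with summed levels of 275 to 387 CPM before and 402 to 1021 CPM after surgery. Its part in the Utrn value was not tested. Dysf stood at 115, 130, 127 and 115 CPM and at 112, 140, 124 and 131 CPM, with a log2 fold change of 0.06 (95% interval -0.18 to 0.30).

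Several other marker lists moved in MRL as well. Of 8 fibre markers 3 were called lower, with a median log2 fold change of -0.68 and summed levels of 109135 to 121845 CPM before and 65517 to 89426 CPM after surgery. Called higher were 6 of 7 smooth muscle and pericyte markers (387 to 530 and 728 to 1290 CPM), 6 of 7 Schwann cell markers (72.9 to 136 and 127 to 376) and 5 of 5 adipocyte markers (267 to 375 and 1100 to 1918). Of the macrophage list 1 of 7 was called higher, with log2 fold changes from -1.54 to 1.18 (68.2 to 297 and 119 to 226 CPM). Of the 6 fibroblast markers 0 were called, with a median log2 fold change of 0.79 (1383 to 2579 and 1831 to 3827 CPM). The part of these shifts in the 8 genes' MRL values was not tested.

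Whether the strains differ in their response was tested by the interaction of strain and surgery, the MRL log2 fold change minus the BL6 one. In edgeR 0 of the 8 genes were called, 1 had an unadjusted p under 0.05, and DESeq2 called 1, Dmd in both cases. Of all genes 0.248% were called (0.154% higher and 0.0939% lower), 29 in number, with 1843 at an unadjusted p under 0.05 in edgeR. Dmd had the largest value of the 8, 1.48 (SE 0.39, 95% interval 0.65 to 2.32; unadjusted p = 0.00175, adjusted 0.130, edgeR), and 48 genes had a higher value. In DESeq2 the adjusted p of Dmd was 0.0231, and 250 genes were called in all. Without the MRL pair of libraries that stood apart the Dmd value was 0.94 (adjusted p = 0.185, edgeR). The other 7 values lay between -0.19 for Sgca and 0.57 for Dtna, with adjusted p of at least 0.331 in edgeR, and an interval such as Dag1's, -0.29 to 0.89, does not show that the strains respond alike. Genes longer than 10000 bases, as Dmd is, had a median interaction of 0.28, against -0.22 for genes of up to 2000 bases. The part of length or RNA quality in the Dmd interaction was not tested.

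**Figure D2:**
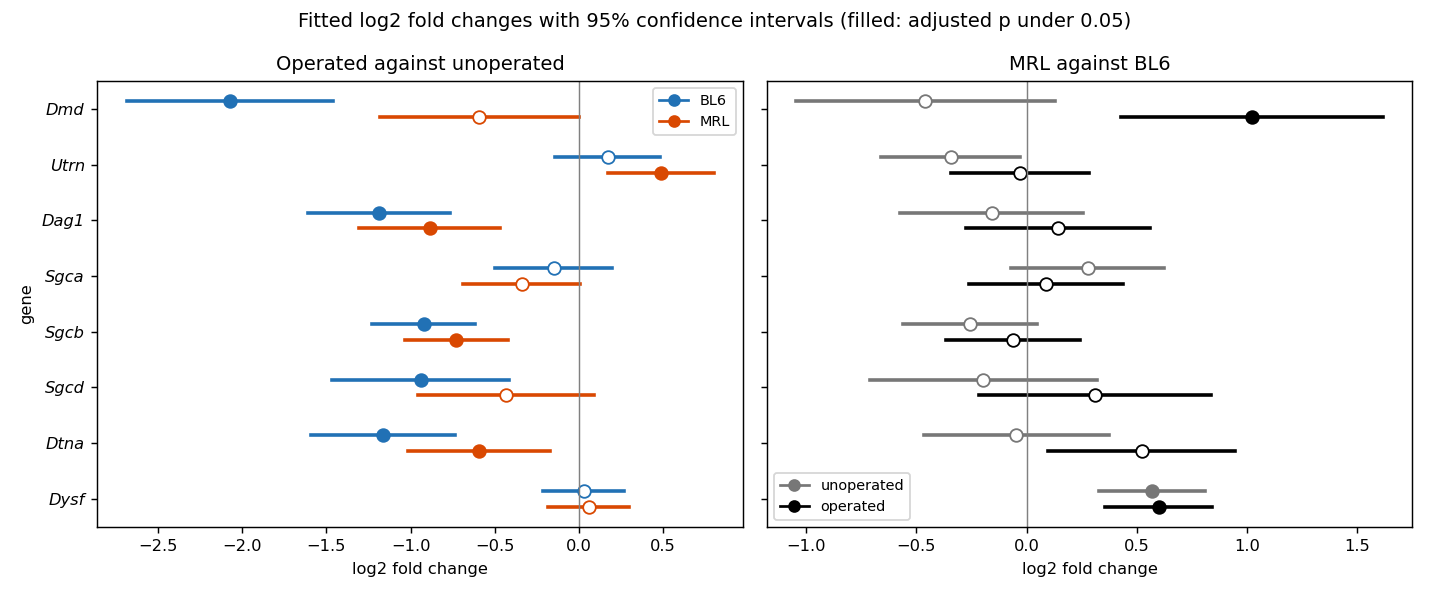
Fitted log2 fold changes of the 8 genes with 95% confidence intervals, for surgery in each strain (left) and for MRL against BL6 in each condition (right); filled points have an adjusted p under 0.05. Dmd lies at -2.07 in BL6 and -0.59 in MRL, and Dysf lies near 0 for surgery but at 0.57 and 0.60 between strains.

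Between strains, dysferlin was the 1 gene of the 8 that was called in both conditions. In unoperated muscle it was higher in MRL, 122 ± 7.79 CPM against 82.1 ± 8.45 CPM in BL6, with no overlap and a log2 fold change of 0.57 (SE 0.11; adjusted p = 0.00333, edgeR). In operated muscle the means were 127 ± 11.9 and 83.7 ± 10.7 CPM, again with no overlap, and the log2 fold change was 0.60 (SE 0.11; adjusted p = 0.00212, edgeR). Each of the 8 MRL samples, at 112 to 140 CPM, thus exceeded each of the 8 BL6 samples, at 69.6 to 97.7 CPM. The shares of all genes called in both conditions, or separated between strains over all samples, were not worked out. This result therefore has no background beside it. Every alternative fit called Dysf in both conditions, with log2 fold changes from 0.50 to 0.71. Reads were aligned to mm10, the BL6 reference, per the submitters' processing notes, and its effect on MRL counts was not tested.

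In unoperated muscle Dysf was the 1 gene of the 8 called between strains, where 10.4% of all genes were called (5.02% higher and 5.36% lower). Groups did not overlap for 3 of the 8 genes, Dysf and Sgca higher and Sgcb lower in MRL, beside 25.1% of all genes. Sgca had a log2 fold change of 0.28 (adjusted p = 0.324, edgeR), and Sgcb one of -0.26 (adjusted p = 0.294, edgeR). Dmd, at 98.8 ± 27.8 CPM against 136 ± 28.1 in BL6, overlapped and had a log2 fold change of -0.46 (adjusted p = 0.332, edgeR). Utrn had one of -0.34 (95% interval -0.66 to -0.03; adjusted p = 0.163, edgeR).

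In operated muscle Dmd was called beside Dysf, so 2 of the 8 genes were, both higher in MRL, where 12.9% of all genes were called (7.60% higher and 5.27% lower). Operated MRL samples averaged 65.5 ± 29.5 CPM of Dmd, and operated BL6 samples 32.3 ± 7.75, a log2 fold change of 1.02 (SE 0.28; adjusted p = 0.0247, edgeR). The groups did not overlap for Dmd and Dysf, beside 13.6% of all genes. Of genes longer than 10000 bases, as Dmd is, 12.5% were called higher and 1.35% lower, with a median log2 fold change of 0.14. The part of length or RNA quality in this Dmd value was not tested. The call on Dmd was lost without replicate 4 of operated MRL (0.65, adjusted p = 0.0899), without replicate 3 or 4 of operated BL6, in a fit of the 8 operated samples alone and with the replicate number as a block (0.95, adjusted p = 0.0520). Without both MRL libraries that stood apart it was kept at 0.65 (adjusted p = 0.0384). The other 6 genes had log2 fold changes from -0.06 for Sgcb to 0.52 for Dtna, whose adjusted p was 0.102 in edgeR.

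Dystrophin and utrophin mRNA were also set against each other within each sample, as the ratio of their counts. The Utrn to Dmd ratio was 0.422, 0.407, 0.250 and 0.227 in replicates 1 to 4 of unoperated BL6 and 1.24, 1.24, 1.53 and 2.14 in operated BL6. In unoperated MRL it was 0.551, 0.294, 0.304 and 0.300, and in operated MRL 1.01, 0.774, 1.14 and 0.360. In all 4 operated BL6 samples utrophin counts exceeded dystrophin counts, in operated MRL 2 of 4 did, and in no unoperated sample did they. The mean log2 ratio differed by 2.25 with surgery in BL6 (two-sided exact permutation p = 0.0286, adjusted over 4 comparisons 0.0571), where 0.0286 is the smallest p that 4 against 4 allows. In MRL it differed by 1.11 (exact permutation p = 0.0571, adjusted 0.0762), and without both libraries that stood apart by 1.69 (adjusted exact permutation p = 0.133). Between strains it differed by -0.99 in operated muscle (exact permutation p = 0.0286, adjusted 0.0571), or by -0.63 without both libraries (adjusted exact permutation p = 0.114). In unoperated muscle it differed by 0.15 (exact permutation p = 0.771). None of the 4 passed after adjustment, and most of the BL6 difference came from Dmd, whose log2 fold change was -2.07 against 0.17 for Utrn.

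**Figure D3:**
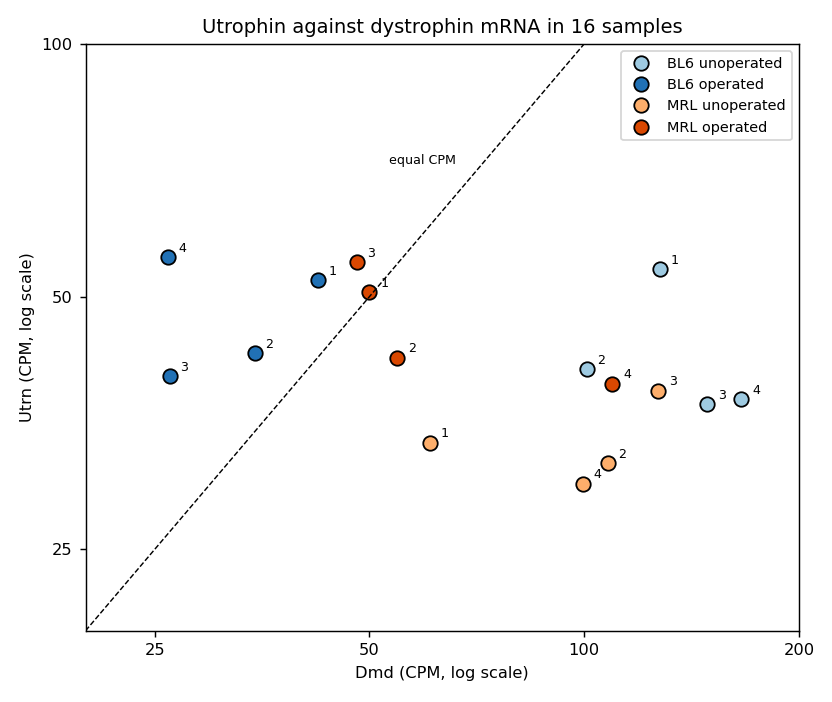
Utrn against Dmd in CPM, both on log axes, for the 16 samples, with replicate numbers beside the points and a dashed line where both are equal. Operated BL6 samples lie above the line, unoperated samples of both strains lie to its right, and replicate 4 of operated MRL lies among the unoperated samples.

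Levels of different genes were compared per kilobase of the longest annotated transcript. In unoperated BL6, Sgca was highest at 143 ± 19.3 CPM per kilobase, then Dag1 at 55.4 ± 2.32, Sgcb at 44.4 ± 1.86 and Dtna at 19.1 ± 2.90, each clear of the next. Dysf, at 12.1 ± 1.24, and Dmd, at 9.11 ± 1.89, overlapped, and so did Sgcd, at 4.16 ± 0.81, and Utrn, at 3.43 ± 0.63. In operated BL6 Dmd was at the foot of the order with Sgcd, both at 2.17, and below Utrn at 3.86 ± 0.60, which overlapped with neither. Sgca, Dag1 and Sgcb led in all 4 groups. In unoperated MRL Dtna (18.5 ± 2.97) and Dysf (17.9 ± 1.15) overlapped, and in operated MRL Dmd (4.40 ± 1.98), Utrn (3.78 ± 0.58) and Sgcd (2.68 ± 0.99) overlapped with their neighbours. The order depends on the length chosen: over the union of exons Dysf stood above Dtna in unoperated BL6, at 9.85 and 7.10 CPM per kilobase.

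Among 13 other genes of the complex that were tested, 4 were called higher and 3 lower in BL6, and 3 higher and 3 lower in MRL. Over all genes, 35.1% were called higher and 32.8% lower in BL6, and 22.3% and 22.7% in MRL, so these counts alone do not set the list apart. Nos1, the neuronal nitric oxide synthase that docks on the complex, fell by 1.77 on the log2 scale in each strain (adjusted p = 0.000223 and 0.00132, edgeR). Sspn (sarcospan), a membrane partner of the sarcoglycans, had log2 fold changes of -1.31 and -0.75 in BL6 and MRL, both called. Of the matrix proteins on the list, Bgn (biglycan) rose by 2.42 and 1.45, and Agrn (agrin), which binds dystroglycan, by 1.27 and 1.02. Lama2, the laminin chain that dystroglycan binds in muscle, was not called, with log2 fold changes of -0.52 (adjusted p = 0.0562, edgeR) and -0.23 (adjusted p = 0.428). Bgn reached 1012 CPM in replicate 4 of operated BL6, the fibroblast-rich library, against 164 to 346 CPM in the other operated BL6 samples. Without that library its BL6 value was 1.65, still called, and its MRL call was lost in 5 alternatives (adjusted p up to 0.0768). The list's median log2 fold change was 0.42 in BL6 and 0.45 in MRL.

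The sugar chain by which dystroglycan binds laminin is built by its own enzymes, of which 17 were tested. In BL6 10 were called lower and 3 higher, and in MRL 7 lower and 2 higher, with medians of -0.34 in both strains beside 0.04 and 0.01 over all genes. The shares of all genes called were 32.8% lower and 35.1% higher in BL6, and 22.7% and 22.3% in MRL. B3galnt2, a sugar transferase of the chain, fell by 0.93 on the log2 scale in BL6, and Rxylt1, a xylosyltransferase of the chain, fell by 0.68 in MRL. The means went the same way in the other strain. B3galnt2 averaged 132 ± 14.6 CPM before and 104 ± 18.3 CPM after surgery in MRL. Rxylt1 averaged 26.8 ± 0.16 and 17.3 ± 2.54 CPM in BL6. Dpm3 and Dpm2, subunits of the enzyme that makes dolichol phosphate mannose, rose in both strains, Dpm3 by 1.41 and 0.87 and Dpm2 by 0.88 and 0.57. The third gene called higher in BL6 was Gmppb, which makes GDP-mannose, with a log2 fold change of 0.68 (adjusted p = 0.00199, edgeR). Dpm3 in MRL was not called without replicate 3 of operated MRL (adjusted p = 0.0539).

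Of 25 genes of membrane repair besides Dysf, 12 were called higher and 9 lower in BL6, and 10 higher and 5 lower in MRL. The shares over all genes were 35.1% higher and 32.8% lower in BL6, and 22.3% and 22.7% in MRL. On the log2 scale, with BL6 first, S100a10, the partner of annexin A2, rose by 2.48 and 1.25, Anxa2 itself by 2.06 and 1.12, and Anxa5 by 1.70 and 1.10. The annexins did not all go this way: Anxa6, the most abundant in CPM of those tested, had log2 fold changes of -0.52 in BL6 (adjusted p = 0.00316, edgeR) and -0.30 in MRL (adjusted p = 0.0744), and Anxa1 had 1.55 (adjusted p = 0.00107) and 0.48 (adjusted p = 0.250). S100a10 stood at 36.7, 23.0, 15.7 and 16.2 CPM in unoperated BL6 and at 136, 131, 92.3 and 151 CPM in operated BL6, with no overlap. Annexins are abundant in other cells of muscle, several of whose markers were called higher as given above, and the part of those cells was not tested. Ehd2, a membrane-shaping ATPase found at caveolae, rose by 1.25 in MRL. In BL6 it also rose, from 79.4 ± 12.7 to 219 ± 32.0 CPM. Ano5 (anoctamin 5), a repair gene of the muscle fibre, fell by 1.84 in BL6, from 287 ± 35.0 to 80.0 ± 24.4 CPM. It was also lower in unoperated MRL than in unoperated BL6 by a log2 fold change of -1.01 (adjusted p = 0.00677, edgeR), at 142 ± 25.5 CPM. In operated MRL its mean was 80.9 ± 21.7 CPM. Ahnak, a partner of dysferlin and S100a10, was higher in unoperated MRL, like Dysf, with a log2 fold change of 0.63 (adjusted p = 0.00474, edgeR).

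The integrin and cytoskeletal links that run beside the complex gave 10 genes higher and 9 lower of 29 in BL6, and 5 higher and 5 lower in MRL. Beside them, 35.1% of all genes were called higher and 32.8% lower in BL6, and 22.3% and 22.7% in MRL. These counts alone do not set the list apart. The largest falls were in cytoskeletal genes. Log2 fold changes in BL6 and MRL were -2.13 and -1.12 for Sync (syncoilin), which binds α-dystrobrevin, -1.91 and -1.06 for Sptb (β-spectrin), and -1.74 and -0.94 for Synm (synemin). In MRL the calls on Sync, Sptb and Synm were each lost when 1 of several libraries was left out, with adjusted p up to 0.101. Without replicate 4 of operated MRL the falls were larger, at -1.91 for Sync, -1.58 for Sptb and -1.33 for Synm. Sync stood at 12.1, 19.7, 12.5 and 57.2 CPM in operated MRL, where replicate 4 again reached the unoperated range of 42.2 to 62.0 CPM. Its higher level in operated MRL than in operated BL6, a log2 fold change of 1.21 (adjusted p = 0.0445, edgeR), was 0.42 without that replicate. The call was lost when any 1 of the BL6 samples was left out. So it was without replicate 2, 3 or 4 of unoperated MRL, or replicate 2 or 4 of operated MRL. Limma voom, the replicate block, the fit of the 8 operated samples and removal of both MRL libraries that stood apart also lost it. Over these fits the adjusted p reached 0.200 (edgeR or limma voom). Actb (β-actin) rose by 1.50 in BL6, and Itga5, an integrin chain that binds fibronectin, by 0.89 in MRL. The means went the same way in the other strain. Actb averaged 263 ± 126 CPM before and 439 ± 100 CPM after surgery in MRL. Itga5 averaged 14.8 ± 3.93 and 40.5 ± 13.8 CPM in BL6. Between unoperated strains Pomk, a kinase of the dystroglycan sugar chain, was lower in MRL (-0.68, adjusted p = 0.00176, edgeR) and Rxylt1 higher (0.36, adjusted p = 0.0355), the latter not called when any 1 of the unoperated samples was left out.

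**Figure D4:**
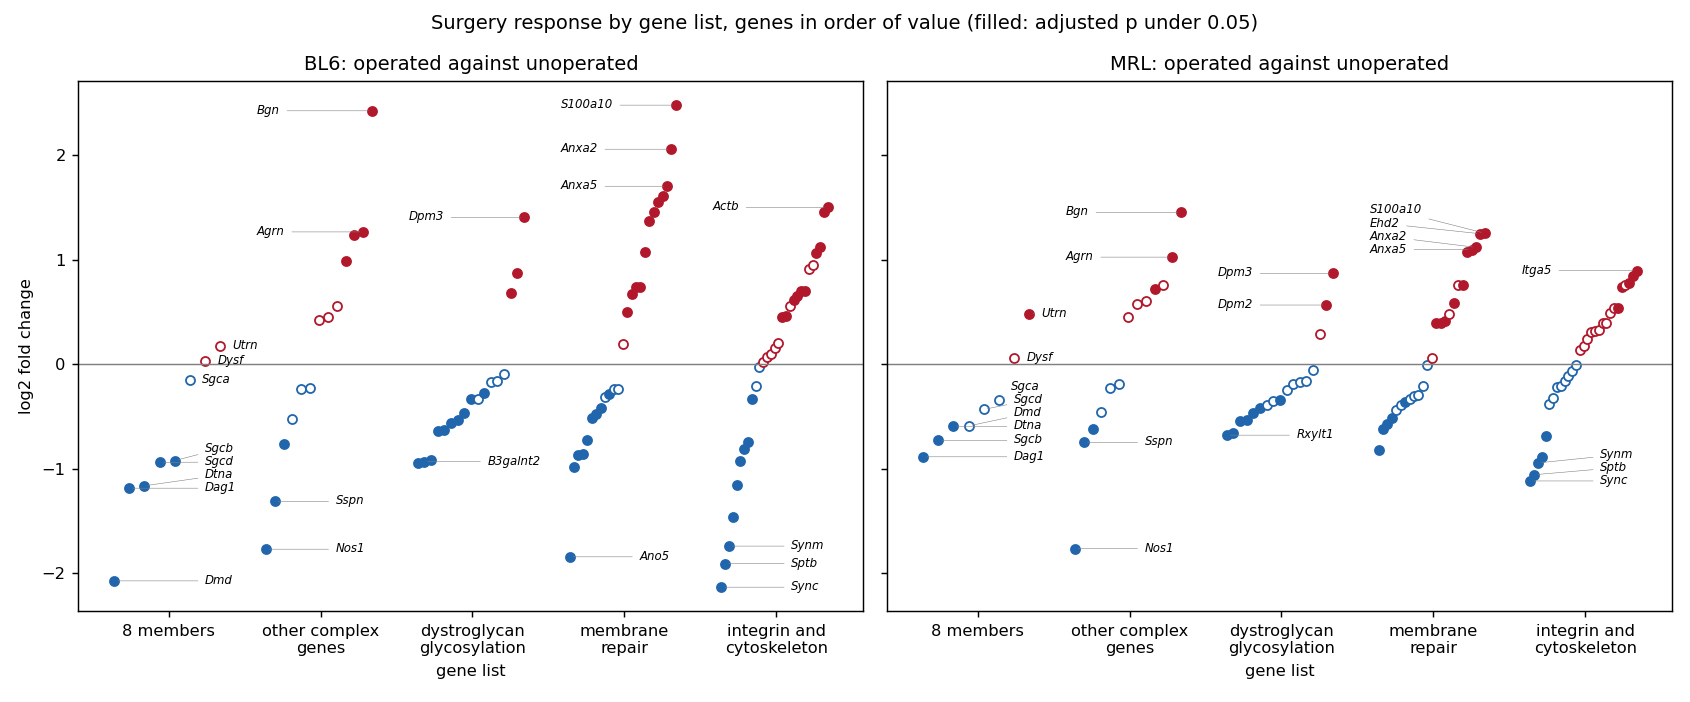
Log2 fold change of operated against unoperated muscle in BL6 (left) and MRL (right) for the 8 genes and the 4 lists of partner genes, each in order of value. Filled points have an adjusted p under 0.05. Labels mark the 8 genes and those partners named in the text that were chosen by rule for the comparison shown. Dmd is at -2.07 in BL6, Nos1 at -1.77 in both strains, and S100a10 at 2.48 and 1.25.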

How the data were processed

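Gene-level read counts came from 16 RNA libraries of minced rotator cuff muscle, grouped by the strain and surgery in the labels; the series text names the infraspinatus and the sample labels the supraspinatus. The deposited values are whole-number counts per gene, not normalized, and the authors' tools were FastQC, STAR and edgeR with build mm10, per the submitters' processing notes; versions, annotation and use of strand are not given in the sources used here. The authors' deposited table of comparisons holds log2 values (log2 fold changes and average log2 CPM), p-values and false discovery rates, per the file headers.

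From the counts, edgeR 4.0.16 in R 4.3.3 kept 11709 of 11710 genes (filterByExpr, minimum count 10), scaled libraries by TMM, and fitted group means to all 16 samples by quasi-likelihood. The 5 comparisons were adjusted by Benjamini-Hochberg over all genes, and called at an adjusted p under 0.05. The fit was tested on simulated data. Log2 CPM used a prior count of 2. The Utrn to Dmd log2 count ratio was compared by two-sided exact permutation tests over samples. Alternatives were limma 3.58.1 (voom), DESeq2 1.42.0, other scalings and filters, a replicate block, 8-sample fits and leaving out each sample. No replicates held the same counts.

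The 8 genes and all lists were chosen with earlier results of these data known. From each list of partner genes the text names up to 4 called genes of largest change per surgery comparison, and up to 2 per strain comparison, at a mean of 5 CPM or more; the 3 genes most correlated with each of the 8 are also named. Lama2, Gmppb, Anxa1, Anxa6 and, in BL6, Dpm2 lie outside these rules and were named after their values were seen. The levels before and after surgery of Ehd2, Itga5 and Rxylt1 in BL6 and of Actb, Ano5 and B3galnt2 in MRL also lie outside them. Some genes these rules select are not reported here and were not replaced. Depth was 24323862 to 43552964 counts per sample. Promoter sequences are RefSeq's (GRCm38.p6); Dtna's and protein sequences are not reported here.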

Additional observations from a re-analysis of the deposited data

Results flagged for a closer look

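In 6 of 36 groups of 4 values, 1 sample lay farther from the rest than Dixon's 95% limit; chance flags about 1 group in 20. Of these, 3 were replicate 4 of operated MRL, high in its group for Dmd at 110 CPM (others 48.0 to 54.7), Dag1 at 245 CPM (others 112 to 129) and Sgcd at 18.5 CPM (others 9.46 to 10.1). That library also had the lowest mitochondrial share of the operated MRL samples, 11.8%, and the lowest endothelial marker sum, 402 CPM; their part in these values was not tested.

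In unoperated MRL, replicate 1 had a Utrn to Dmd ratio of 0.551 against 0.294 to 0.304 in the others, and its macrophage markers summed to 297 CPM. Dtna was low in replicate 4 of operated BL6, at 37.6 CPM against 57.1 to 60.4 in the others, where fibroblast markers summed to 7476 CPM. Dag1 in replicate 2 of unoperated BL6 was 294 CPM against 319 to 322, a small gap beside its distance from the operated samples.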

How the results depend on the processing

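The 5 falls in BL6 and the Dysf strain difference were called under every alternative run. Leaving out 1 sample gave 2 to 6 of the 8 genes called in MRL (2 without replicate 4 of unoperated or replicate 3 of operated MRL, the latter also taking all genes called from 5272 to 3490, the lowest of a range up to 6145), 1 to 3 between operated strains, and 1 to 69 genes of all in the interaction. The interaction called 14 genes with total counts alone, 250 with DESeq2, which called 1 of the 8 genes, and 2 with the replicate block. Total counts alone called 2 of the 8 between unoperated strains, Dysf and Sgca. Fits of 8 samples called 2438 genes between unoperated and 575 between operated strains, with 1 of the 8 genes in the latter. The causes were not tested.

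Signs turned only for log2 values that were not called. With total counts alone Dysf's interaction was -0.0351, Dtna between unoperated strains 0.10, and between operated strains Utrn was 0.0036 and Sgcb 0.0341. Leaving out 1 sample gave -0.0211 to 0.11 for the Dysf interaction, -0.03 to 0.42 for Dag1's, -0.13 to 0.0451 for Dtna between unoperated strains, and -0.0554 to 0.0735 for Dysf in BL6. Between operated strains it gave -0.12 to 0.0544 for Utrn, -0.18 to 0.0804 for Sgcb, -0.0664 to 0.22 for Sgca and -0.20 to 0.26 for Dag1. The Utrn to Dmd ratio between unoperated strains ran from -0.0696 to 0.29. Without both MRL libraries that stood apart, a choice made after seeing the data, the interaction was -0.00905 for Dysf and -0.10 for Dag1, Dtna between unoperated strains was 0.0451, Utrn and Dag1 between operated strains were 0.0349 and -0.20, and the unoperated ratio was -0.0696; 6399 genes of all were then called in MRL.

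Replicate numbers are shared across groups, and same-numbered samples correlated at -0.47 to 0.45 in their deviations from group means. Their mean r was -0.14 for surgery in BL6, 0.09 for surgery in MRL, and 0.16 between unoperated and between operated strains. Samples of different number had means of 0.05, -0.04, -0.05 and -0.04. With 4 samples per group, these values do not settle whether the numbers pair the samples. With the replicate number as a block, 5, 4, 0, 1 and 1 of the 8 genes were called in the 5 comparisons, against 5, 4, 0, 1 and 2; the call lost was Dmd between operated strains. In the ratio tests the block's exact permutation p was 0.125 for 3 comparisons and 0.625 for the unoperated strains, and 0.125 is the smallest it allows. Scaling by total counts moved the median of all genes to 0.18 in BL6 and 0.15 between unoperated strains, and took the share of called genes that were higher in MRL from 48.4% to 70.3% unoperated and from 59.1% to 72.2% operated. The authors' deposited table calls 5, 6, 1 and 2 of the 8 genes in its 4 comparisons, adding Dmd (-0.71, false discovery rate 0.0276) and Sgca in MRL. The share of all genes called in that table was not worked out, so its counts have no background beside them. Counting error weighs most on Sgcd, which had the lowest counts of the 8 genes. In operated BL6, at 224 to 371 counts, its SD was 6.82% of its mean. The share of counting error in the spread between samples was not worked out.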

Other observations

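The genes whose log2 CPM followed each of the 8 most closely over the 16 samples, among 9929 genes of at least 5 CPM, were found by Pearson's r as a description, since all points share the strain and surgery of their group and the library's composition. Dmd was followed by Neb (nebulin, a giant protein of the sarcomere, r = 0.99), Spag9 (0.99) and Kif5b (kinesin heavy chain, 0.98). For Neb r was 0.95 after group means were removed and 0.92 without the MRL pair of libraries that stood apart. Dag1 was followed by Atg9a, Psap and Slc40a1 (each 0.99), whose values fell to 0.54 to 0.60 after removal of group means and of that pair. Dtna was followed by Fam210a (0.99), Dld and Ghitm (0.98 each), genes of mitochondrial proteins, and for Fam210a the value was 0.97 after both removals. Sgcb was followed by Rrn3, Snx19 and Lpin1 (0.98 each), and Sgcd by Cbx5 (0.96), Erc1 and Hivep1 (0.95 each). Sgca was followed by Tpm1 (tropomyosin 1, 0.91), Fastkd1 and Zkscan14, and Utrn by 4930503L19Rik (0.90) and Ift80 (0.88). Those closest to Dysf were the predicted genes Gm8730, Gm3375 and Gm13394 (0.92 to 0.93), for which r was 0.37 to 0.54 after group means were removed.

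Among the 8 genes themselves, Dmd and Dtna had the highest r, 0.94, and Dag1 and Sgcb had 0.93 over the 16 samples. Over the 16 samples, group differences included, Utrn ran against the others, with r from -0.81 with Sgca to -0.30 with Dysf. After group means were removed and the pair of libraries left out, Dmd and Dtna had 0.66, Dag1 and Sgcb 0.29, and Dag1 and Dtna 0.01. Utrn then had -0.69 with Sgca and -0.56 with Dtna, but -0.02 with Dmd and 0.33 with Sgcd, and between -0.25 and -0.14 with Sgcb, Dag1 and Dysf. Dysf, which did not pass the test for surgery in either strain, had 0.70 with Dmd and 0.72 with Dag1 on that scale, against 0.18 and -0.03 over the 16 samples.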
